A study of Mus musculus with 12 samples.

Results

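Snai1, Snai2 and Hmga2 are 3 regulators of the transition of cells to a mesenchymal state, and they were 3 of the 8267 genes that could be named on these arrays. They were chosen by name after earlier results of the same data were known, in particular the differences between BMP6-treated and control cells, so their changes against control are given as a description with no test. Each was measured by 1 probe. Expression was profiled in MECs, an intraembryonic mouse endothelial cell line, given a mock treatment or exposed for 4, 12 or 24 h to BMP6, a bone morphogenetic protein. There were 12 two-colour Agilent arrays, 3 independent biological replicates in each of 4 groups. On every array Cy5 marked the RNA from the cells and Cy3 marked a mouse reference RNA. All groups are the same cell line, no genetic change is named for any of them, and neither a BMP6 dose nor a time for the controls is labelled. The series title names cyclooxygenase 2 and prostanoids in the response to BMP6.

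Values are log ratios of cells to reference RNA, taken as log2. The sources used here state no base and no sign. The sign was read as cells over reference, which the dyes make likely, and with which the BMP target genes Id1, Id2 and Id3 lie higher in treated cells at every time. With the opposite sign each higher value below would be a lower one. Gene names rest on an order of the array grid that was inferred from agreement between probes of the same gene (Pearson r = 0.471 across 1831 genes in that order, against 0.021 in the deposited order), so the identity of all 3 probes depends on it. Of 13 endothelial markers 7 were measured, and their mean log ratio lay between -1.07 and -0.77 on treated arrays and between -0.92 and -0.82 on control arrays. In controls 0 of the 7, Pecam1 and Cdh5 among them, lay above the reference RNA, while all 3 measured fibroblast markers of 7 (Col1a1, Col1a2 and Prrx1) did. Of measured smooth muscle markers 3 of 5 lay above it in controls, of epithelial markers 1 of 6 and of blood markers 0 of 1. In each treated group 1 of the 7 endothelial markers lay above it. A ratio to a mixed reference does not give presence or absence, so the labelled cell type could not be checked further.

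Snai1 and Snai2 encode zinc finger repressors of the Snail family. They bind E2-boxes in the promoters of junction genes such as the cadherins and recruit chromatin-modifying corepressors through a short N-terminal domain. In endothelium, factors of the TGF-beta superfamily drive such a transition during heart valve formation, and the Snail proteins take part in it. Hmga2 encodes an architectural chromatin protein whose AT-hooks bind the minor groove of AT-rich DNA. It is abundant in embryonic cells, is held low by let-7 microRNAs, and acts upstream of Snai1 in the response of mouse mammary epithelial cells to TGF-beta.

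The Snai1 gene lies at chr2:167538195-167542814, Snai2 at chr16:14705852-14709395 and Hmga2 at chr10:120361268-120476469 (GRCm38.p6, RefSeq). Because Snai1 and Hmga2 were both higher at 4 h, the 250 bases before the start site of each are shown from the RefSeq promoter table, which gave a sequence for these 2 of the 3 genes. The Snai1 window is chr2:167537945-167538194 on the plus strand and the Hmga2 window is chr10:120476470-120476719 on the minus strand. Capitals mark the E2-box CACCTG bound by Snail proteins and the SMAD box GTCT, each searched on both strands.
Snai1: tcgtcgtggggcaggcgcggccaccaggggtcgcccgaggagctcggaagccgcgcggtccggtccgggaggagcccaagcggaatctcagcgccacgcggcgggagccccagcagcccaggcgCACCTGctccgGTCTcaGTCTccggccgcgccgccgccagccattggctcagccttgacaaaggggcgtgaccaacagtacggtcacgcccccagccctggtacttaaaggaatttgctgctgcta
Hmga2: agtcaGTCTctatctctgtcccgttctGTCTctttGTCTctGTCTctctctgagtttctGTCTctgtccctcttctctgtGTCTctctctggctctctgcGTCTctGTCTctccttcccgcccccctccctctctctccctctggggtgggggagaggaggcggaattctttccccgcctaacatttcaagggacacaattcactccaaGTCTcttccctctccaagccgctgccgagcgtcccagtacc

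The Snai1 window held 1 E2-box, starting at position -126 from the start site, followed by 2 SMAD boxes at -115 and -109, and 70% of its bases were G or C. Of all 32851 RefSeq promoter windows of the same length, 17.2% held an E2-box. The Hmga2 window held no E2-box and 9 SMAD boxes, all on the strand shown and most of them within its run of C and T repeats. At least 9 matches were found in 0.067% of all windows and at least 2 in 54.9%. The GC-rich SMAD element GGCGCC was in neither window and in 9.59% of all windows. The motifs overlap nowhere here, the SMAD box was taken up after the sequences had been seen, and a match of letters is not a measured binding site.

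Snai1 was higher in treated cells at all 3 times, most at 4 h. Its log2 ratios were 0.08, -0.08 and 0.43 on control arrays 1 to 3, 1.002, 0.88 and 0.93 at 4 h, 0.80, 0.69 and 0.85 at 12 h, and 0.33, 0.45 and 0.86 at 24 h. All 4 h arrays lay above all 12 h arrays, and both lay above all control arrays. Of all genes, 3.81% lay above control without overlap at 4 h and 6.33% below it, 3.13% and 4.14% at 12 h, and 4.98% lay lower and 4.16% higher at 12 h than at 4 h. The 24 h arrays overlapped the controls, because control 3 at 0.43 was above 24 h array 1 at 0.33. The 24 h and 12 h arrays overlapped as well.

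The group means of Snai1 were 0.14 ± 0.26 in controls, 0.94 ± 0.06 at 4 h, 0.78 ± 0.08 at 12 h and 0.55 ± 0.28 at 24 h (SD, n = 3 each). The 4 h and 12 h arrays were close together and the control and 24 h arrays were spread. Against control, Snai1 stood at a log2 change of 0.79 at 4 h (1.73-fold), 0.63 at 12 h (1.55-fold) and 0.40 at 24 h (1.32-fold), each with an SE of 0.146 from one fit over the 12 arrays. Among the 8267 genes, ordered from the highest change down, these were ranks 11, 9 and 16.

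Hmga2, also higher at 4 h, was on average nearer to control at 24 h than Snai1 was. This difference in course was not tested. Its log2 ratios were 0.23, -0.04 and 0.12 on control arrays 1 to 3, 0.71, 1.32 and 1.10 at 4 h, 0.67, 0.91 and 0.59 at 12 h, and 0.11, 0.24 and 0.29 at 24 h. The 4 h arrays and the 12 h arrays all lay above all control arrays and above all 24 h arrays, while 4 h and 12 h overlapped, and so did 24 h and control. Without overlap, 6.6% of all genes lay lower and 5.42% higher at 24 h than at 4 h, and 2.01% lay higher and 2.47% lower at 24 h than in controls.

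The group means of Hmga2 were 0.10 ± 0.13 in controls, 1.05 ± 0.31 at 4 h, 0.72 ± 0.17 at 12 h and 0.21 ± 0.09 at 24 h (SD, n = 3 each). Against control this was a log2 change of 0.94 at 4 h (1.92-fold, rank 7 of 8267), 0.62 at 12 h (1.53-fold, rank 11) and 0.11 at 24 h (1.08-fold, rank 543), with an SE of 0.142. Array 1 at 24 h lay within the range of the controls, and arrays 2 and 3, at 0.24 and 0.29, lay just above the highest control at 0.23.

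**Figure D1:**
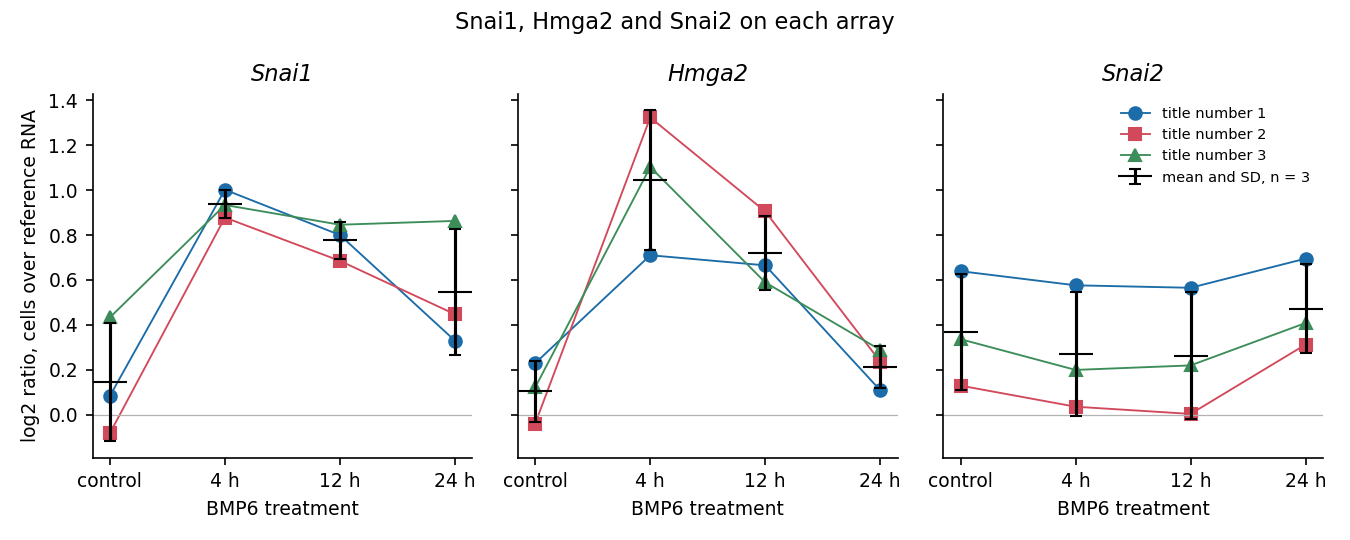
Log2 ratio of cells to reference RNA (y axis) for Snai1, Hmga2 and Snai2 on the 12 arrays, by treatment (x axis). Coloured points are arrays, joined by title number, and black marks are the group mean and SD (n = 3). Snai1 is at 0.94 and Hmga2 at 1.05 on average at 4 h, while the 3 Snai2 lines run side by side. Levels of different probes are not comparable.

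Snai2, the second Snail family gene, did not follow Snai1. Its log2 ratios were 0.64, 0.13 and 0.34 on control arrays 1 to 3, 0.58, 0.04 and 0.20 at 4 h, 0.57, 0.00 and 0.22 at 12 h, and 0.70, 0.31 and 0.41 at 24 h. In every group array 1 was the highest and array 2 the lowest, and all groups overlapped. The arrays of one title number therefore resembled each other more than the arrays of one treatment did.

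The title numbers held 84.0% of the sum of squares of Snai2 over the 12 arrays, the treatment groups 14.2% and the rest 1.81%. For Snai1 the title numbers held 12.9% and the groups 77.1%, and for Hmga2 3.1% and 85.3%. What arrays of the same number share is not given in the labels.

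Within title numbers, Snai2 lay below control in 3 of 3 pairs at 4 h (-0.06, -0.09 and -0.14) and in 3 of 3 at 12 h (-0.07, -0.13 and -0.12), and above it in 3 of 3 at 24 h (0.06, 0.18 and 0.07). How many of all genes have 3 of 3 pairs in one direction was not counted, here or for Snai1 and Hmga2. The means at 4 and 12 h were smaller in size than those of Snai1 and Hmga2, while at 24 h the mean of 0.10 was like the 0.11 of Hmga2. With the title number in the fit, the mean changes of -0.10, -0.11 and 0.10 had 95% intervals of -0.20 to 0.01 at 4 h, -0.21 to 0.00 at 12 h and -0.00 to 0.21 at 24 h. Without it, the SE of each was 0.183. The intervals are a description and not a test, because the genes were chosen with these changes known.

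The differences of Snai1 from control within title numbers 1 to 3 were 0.92, 0.96 and 0.50 at 4 h, 0.72, 0.77 and 0.41 at 12 h, and 0.25, 0.53 and 0.43 at 24 h, so it was higher in 9 of 9 pairs. Pair 3 was the smallest at 4 and 12 h, where its control was the highest of the 3. Those of Hmga2 were 0.48, 1.36 and 0.98 at 4 h, 0.44, 0.95 and 0.47 at 12 h, and -0.12, 0.28 and 0.17 at 24 h, higher in 8 of 9. Pair 2 showed the largest Hmga2 difference at each time, and pair 1 the smallest. With the title number in the fit the SE of a change was 0.103 for Snai1, 0.0476 for Snai2 and 0.131 for Hmga2.

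**Figure D2:**
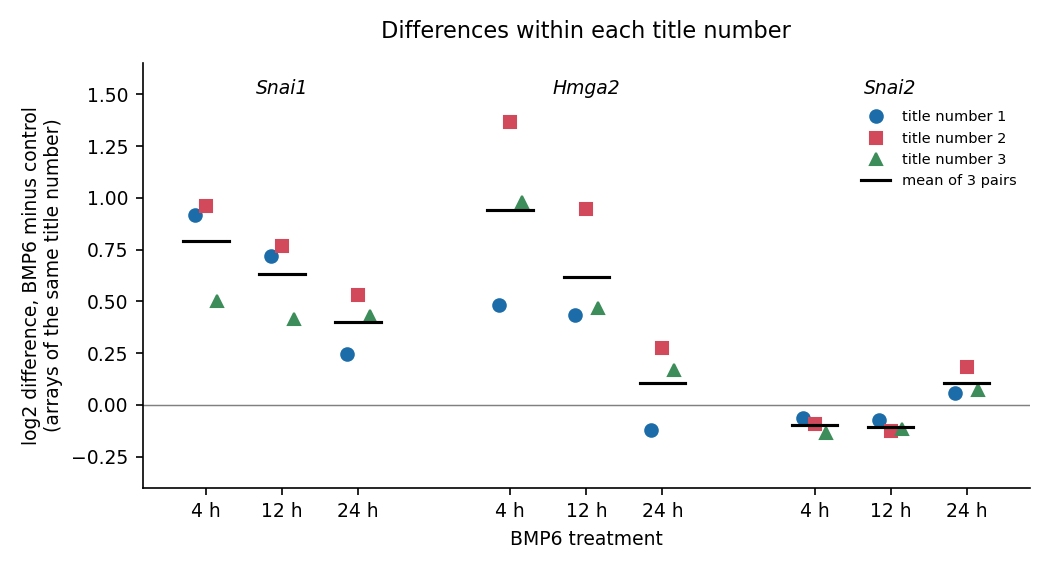
Log2 difference of each BMP6-treated array from the control array of the same title number (y axis), by time (x axis), for the 3 genes. Points are pairs and bars are means of 3 pairs. All Snai1 points lie above 0, Hmga2 comes down to a mean of 0.11 at 24 h, and Snai2 stays within 0.18 of 0.

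These comparisons share the 3 control arrays, and the choice of genes used them. As background, in the fit without title numbers (unpaired, limma, Benjamini-Hochberg adjusted p under 0.05 over 8267 genes) 0.121% of all genes were called higher and 0.0484% lower at 4 h, and 0% in each direction at 12 h and at 24 h. An unadjusted p under 0.05 was reached by 614, 393 and 166 genes. In the fit with the title number as a block (paired), 2.27% were called higher and 3.75% lower at 4 h (6.02% in all), 0.472% and 1.42% at 12 h (1.89% in all), and 0.0726% and 0.0968% at 24 h (0.169% in all, the same share as at 4 h in the unpaired fit). The median change over all genes was -0.01, -0.00 and -0.01.

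**Figure D3:**
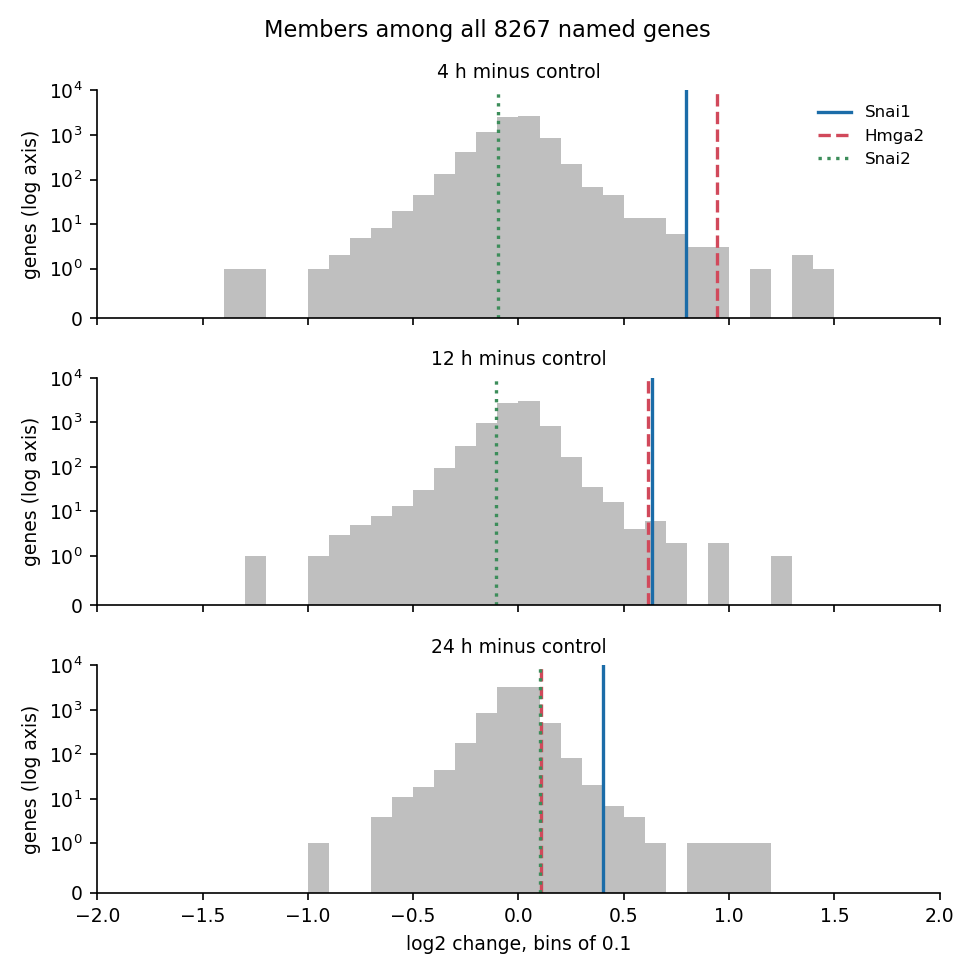
Number of genes (y axis, log scale) by log2 change against control (x axis, bins of 0.1) at 4, 12 and 24 h, with vertical lines at Snai1, Hmga2 and Snai2. At 4 h Hmga2 and Snai1 are ranks 7 and 11 of 8267, and at 24 h the Hmga2 line (0.11) lies on that of Snai2 (0.10).

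The comparison of 24 h with 12 h was tested, since its means hold neither control nor 4 h arrays. Its error and its title number terms come from all 12 arrays, and the 12 h and 24 h arrays had also entered the differences from control that were known when the genes were chosen, so the test is not wholly independent of that choice. Hmga2 was at -0.51 at 24 h relative to 12 h (0.703-fold, SE 0.142), lower in 3 of 3 pairs and with no overlap of the groups, as were 3.21% of all genes, while 2.71% lay higher without overlap. It did not pass limma's test over all genes (unadjusted p 0.0042 unpaired and 0.00286 paired, adjusted p 1 and 0.263). With 1 of the 12 arrays left out, its paired adjusted p ran from 0.147 without array 1 at 4 h to 0.877 without array 2 at 12 h. The paired 95% interval ran from -0.80 to -0.22. Snai1 was at -0.23 (SE 0.146, lower in 2 of 3 pairs) and did not pass (limma adjusted p 1 unpaired, 0.576 paired, paired interval -0.46 to -0.00). Snai2 was at 0.21, higher in 3 of 3 pairs by 0.13, 0.31 and 0.19, and did not pass either (limma unadjusted p 0.277 unpaired and 0.00127 paired, adjusted p 1 and 0.184, paired interval 0.10 to 0.32). In this comparison 0 of 8267 genes passed unpaired, with 152 at an unadjusted p under 0.05, and 0.0847% were called higher and 0.0242% lower in the paired fit (0.109% in all).

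Between 12 h and 4 h, which used the arrays that the choice drew on, Snai1 stood at -0.16, Snai2 at -0.01 and Hmga2 at -0.33. Between 24 h and 4 h they stood at -0.39, 0.20 and -0.84. Over all genes the paired fit called 0.266% higher and 1.03% lower at 12 h than at 4 h (1.29% in all), and 1.85% higher and 2.2% lower at 24 h than at 4 h (4.05% in all). The unpaired fit called 0% and 0.0726%. Hmga2 at 24 h was 0.561-fold of its 4 h level and Snai1 0.762-fold. Both were lower at 24 h than at 4 h in 3 of 3 pairs, with differences of -0.60, -1.09 and -0.82 for Hmga2 and -0.67, -0.43 and -0.07 for Snai1.

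Among the 3 genes, Snai1 and Hmga2 followed each other most closely. The genes were chosen with their differences from control known, and these differences enter the correlation, so its values are a description. Over the 12 arrays, which share the controls and the title numbers, Pearson's r was 0.75 between Snai1 and Hmga2, -0.15 between Snai1 and Snai2 and -0.45 between Hmga2 and Snai2. After centring each title number the values were 0.83, -0.45 and -0.75.

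The 5 genes most like each regulator by Pearson's r over the 12 arrays were then listed. For Snai1 they were Timp1, an inhibitor of metalloproteases (0.92), the deubiquitinase Usp9x (0.92), the SMAD corepressor Skil (0.91), an entry that the platform table spells TIMP1 with an identifier outside the mouse RefSeq genes (0.90), and the interleukin-1 receptor subunit Il1rap (0.86). Skil had log2 ratios of -0.40, -0.36 and -0.12 on control arrays, 0.15, 0.31 and 0.35 at 4 h, -0.07, 0.02 and 0.14 at 12 h, and -0.13, -0.08 and 0.10 at 24 h. Like Snai1 it was highest at 4 h and above the pair's control on each treated array. Timp1 differed in shape, with mean changes of 0.75 at both 4 and 12 h and 0.17 at 24 h. Usp9x changed less than Snai1, by 0.27, 0.17 and 0.15 at 4, 12 and 24 h. After centring on title numbers, Usp9x was first at 0.95, then came Dlx1, Wnt2, Slc25a32 and Vash2, and Skil was at rank 6.

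For Hmga2 the list was Tnfrsf12a, the TWEAK receptor (0.95), Hbegf, a ligand of the EGF receptor (0.95), Nhlrc2 (0.93), Il1rap (0.93) and the phosphate transporter Slc20a1 (0.90). Pearson's r does not reflect the size of a change, and Nhlrc2 changed by only 0.09, 0.06 and 0.02 at 4, 12 and 24 h. Tnfrsf12a had log2 ratios of 1.04, 1.03 and 1.34 on control arrays, 2.11, 2.40 and 2.30 at 4 h, 1.77, 1.87 and 1.72 at 12 h, and 1.31, 1.32 and 1.26 at 24 h. Its array 1 was the lowest at 4 h and its array 2 the highest, as for Hmga2. Il1rap is on the lists of both Snai1 and Hmga2, with changes of 0.88, 0.47 and 0.18 at 4, 12 and 24 h. After centring, Il1rap, Tnfrsf12a and Hbegf had ranks 1, 2 and 4 for Hmga2, at 0.96, 0.95 and 0.95.

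For Snai2 the list was Cdh2, the N-cadherin gene that marks mesenchymal cells (0.97), Pdgfrl (0.97), the microtubule-associated Map2 (0.96), Dzip3 (0.96) and the matrix gene Tgfbi (0.95). Cdh2 had log2 ratios of 1.98, 1.31 and 1.66 on control arrays, 1.92, 1.17 and 1.26 at 4 h, 2.02, 1.33 and 1.41 at 12 h, and 2.08, 1.54 and 1.66 at 24 h. Array 1 was the highest and array 2 the lowest in each group, the same order as for Snai2. With title numbers centred its r with Snai2 was 0.83 and its rank 23, and the first 5 were then Syap1, Prelid1, Gli2, Loxl3 and Lima1.

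**Figure D4:**
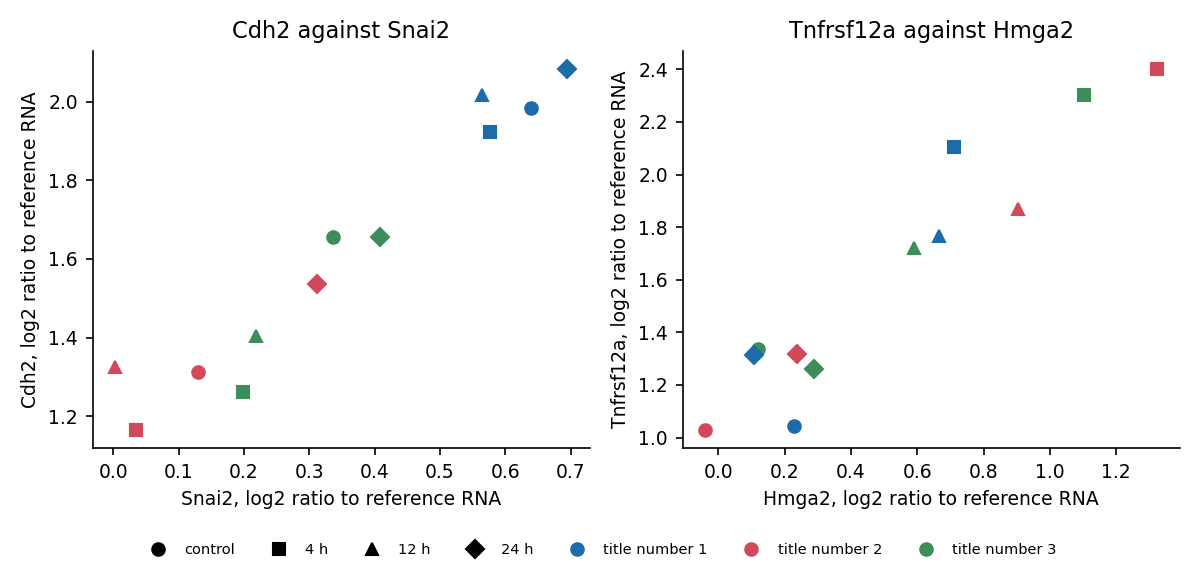
Log2 ratios of the nearest gene (y axis) against those of Snai2 or Hmga2 (x axis) on the 12 arrays. Shape gives the treatment and colour the title number. Cdh2 and Snai2 (r = 0.97) separate by colour, with title number 1 at the top right, while Tnfrsf12a and Hmga2 (r = 0.95) separate by shape, with the 4 h arrays at the top right.

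Other genes of the pathway were taken from 8 lists that hold 137 genes besides the 3 described, of which 93 were measured. The lists, too, were drawn up with earlier results of these data known. Tests of list genes against control, here and below, are therefore not independent of that choice. Id1, Id2, Id3, Acvr1, Prrx1 and Cdh11 were among the genes already in view. Counts and adjusted p of list genes against control describe the fits and are not independent support. In the unpaired fit 0 of the 93 passed at 4, 12 or 24 h. In the paired fit (limma, adjusted p under 0.05) 7 rose and 6 fell at 4 h, and 3 rose and 3 fell at 12 h. At 24 h 3 rose, and 3 of each set of risers were Id1, Id2 and Id3. Over all genes the same fit called 2.27% higher and 3.75% lower at 4 h, and 0.472% and 1.42% at 12 h. At 24 h the shares were 0.0726% and 0.0968%. These shares are also the background for the counts of single lists below. The median change of the 93 was 0.01, 0.00 and -0.01.

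Among other transcription factors of the transition, 10 of 16 were measured and their median change at 4 h was -0.02. In the paired fit 0 rose and 2 fell, Prrx1 by 0.49 and Tcf4 by 0.33 on the log2 scale (limma adjusted p 0.00754 and 0.0144 paired, 0.195 and 0.601 unpaired). Prrx1, a homeobox factor of mesenchyme, had 0.31, 0.03 and 0.06 at 4 h against 0.87, 0.65 and 0.36 in controls. At 12 h its change was -0.50 (0.0173 paired, 0.533 unpaired). The 4 h and control arrays of Prrx1 did not overlap, and its 24 h arrays, at 0.70, 0.41 and 0.38, overlapped the controls. Of all genes, 6.33% lay below control without overlap at 4 h and 3.81% above it. Without control replicate 2, 4 h replicate 2 or 4 h replicate 3 the paired adjusted p of Tcf4 was 0.0758, 0.0612 and 0.0645. That of Prrx1 at 12 h was 0.0601 and 0.109 without control replicates 1 and 2, and 0.0955 and 0.105 without 12 h replicates 1 and 2.

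Named outside the rule, after their values were seen, are the repressors Zeb1 and Zeb2 and the helix-loop-helix factor Twist1. Zeb1 had 0.12, 0.37 and 0.09 at 4 h against 0.06, 0.10 and -0.26 in controls, a change of 0.23 that did not pass (limma adjusted p 0.059 paired, 0.754 unpaired). Zeb2 stood at -0.00 and Twist1 at -0.04 at 4 h (limma paired adjusted p 0.986 and 0.864). Their values at 12 and 24 h lay within 0.07 of control.

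Genes of cell junctions and epithelia, the class that Snail proteins repress, had a median change of 0.02 at 4 h, -0.02 at 12 h and 0.00 at 24 h over 14 measured of 20. At 4 h and at 24 h 0 passed in the paired fit, and 1 fell at 12 h. This was Jup, which encodes plakoglobin of adherens junctions and desmosomes, with 0.24, 0.20 and 0.37 at 12 h against 0.52, 0.57 and 0.62 in controls. All its 12 h arrays lay below all control arrays, a log2 change of -0.30 (0.812-fold, limma adjusted p 0.00857 paired, 0.354 unpaired). Of all genes, 4.14% lay below control without overlap at 12 h and 3.13% above it. The paired call of Jup was lost without control replicate 2 (0.0606) and without 12 h replicate 1 or 2 (0.0582 and 0.0669).

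The E-cadherin gene Cdh1 and the endothelial cadherin gene Cdh5 are given for their known place as Snail targets, again outside the rule. Cdh1 had -1.29, -1.71 and -1.57 at 4 h against -1.52, -1.52 and -1.58 in controls, a change of 0.02 with an SE of 0.131. Cdh5 had -1.64, -1.81 and -1.75 at 4 h against -1.72, -1.57 and -1.58 in controls, and its changes of -0.11, -0.11 and -0.11 at 4, 12 and 24 h did not pass (limma paired adjusted p 0.477, 0.594 and 0.807). For both the groups overlapped.

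Of 24 genes of the mesenchymal state 18 were measured, with a median change of -0.03 at 4 h, -0.02 at 12 h and -0.02 at 24 h. In the paired fit at 4 h 2 rose and 2 fell, and 0 passed at 12 and 24 h. The fibronectin receptor subunit Itga5 rose by 0.44, with 0.48, 0.74 and 0.46 at 4 h against 0.15, 0.23 and -0.02 in controls (limma adjusted p 0.00104 paired, 0.176 unpaired). The contractile gene Cnn1 rose by 0.25 (0.0135 paired, 0.778 unpaired), while the cadherin gene Cdh11 fell by 0.44 on the log2 scale (0.0251 paired, 0.704 unpaired) and the collagen gene Col3a1 fell by 0.24 (0.0363 paired, 0.214 unpaired). Itga5 lay above all controls on all 4 h arrays, as did 3.81% of all genes, while 6.33% lay below without overlap. The call of Itga5 held without each array in turn (limma paired adjusted p at most 0.0102). The other 3 calls were lost in 2, 4 and 9 of the 12 fits with 1 array left out for Cnn1, Cdh11 and Col3a1, at adjusted p up to 0.0737, 0.0851 and 0.124. The arrays concerned were control 2 and 4 h replicate 2 for Cnn1, control 2 or 3 and 4 h replicate 2 or 3 for Cdh11, and control 2 or 3, any 4 h or 12 h array and 24 h replicate 1 for Col3a1. Chosen after their values were seen, Fn1, the fibronectin gene, stood at 0.28 and Vim, the vimentin gene, at -0.22 at 4 h, neither of which passed (limma paired adjusted p 0.121 and 0.421).

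Of 11 other high mobility group genes 7 were measured, and the mean changes of all 7 at 4 h lay below 0, from -0.33 to -0.13. Their median was -0.17, against -0.01 over all genes, and 0 passed in either fit. By pairs, 4 of the 7 lay above control in pair 1 (median 0.04), and 7 of 7 lay below it in pair 2 (median -0.12) and in pair 3 (median -0.40). Without control replicate 3, the median was -0.10. They stood at a median of -0.06 at 12 h and -0.05 at 24 h. Of 17 genes of the let-7 pathway or linked to Hmga2, 10 were measured, with a median change of -0.01, and 1 fell in the paired fit at 4 h. This was the cyclin gene Ccnb2, which fell by 0.36 on the log2 scale (limma adjusted p 0.0315 paired, 0.779 unpaired), a call lost in 6 of the 12 fits with 1 array left out, at adjusted p up to 0.135. Those were the fits without control 2 or 3, 4 h replicate 2 or 3, 12 h replicate 3 or 24 h replicate 3. The level of let-7 itself was not measured.

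Of 20 cofactors and stability regulators of Snail proteins 14 were measured, and 0 passed at any time in either fit. Their changes at 4 h ran from -0.09 to 0.20, all smaller than that of Snai1.

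Upstream, 17 of 25 receptors, mediators and ligands of BMP and TGF-beta were measured, and their median change at 4 h was 0.02. In the paired fit 2 rose and 1 fell. Acvr1, a type I receptor for BMP6, had 0.47, 0.38 and 0.32 at 4 h against 0.12, 0.10 and -0.02 in controls (limma adjusted p 0.00446 paired, 0.0671 unpaired). The ligand gene Tgfb1 had 0.48, 0.74 and 0.64 at 4 h against 0.21, 0.22 and 0.09 (0.00265 paired, 0.069 unpaired). Both groups were separate for each gene, as they were for 3.81% of all genes higher at 4 h and 6.33% lower. Both paired calls held without each array in turn.

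The ligand gene Tgfb2 behaved otherwise. It fell by 0.32 on the log2 scale at 4 h and by 0.44 at 12 h in the paired fit (limma adjusted p 0.0394 and 0.0245, 0.89 and 1 unpaired), and had 0.88, 0.14 and 0.73 at 24 h against 0.76, 0.19 and 0.44 in controls. Array 1 was its highest and array 2 its lowest in every group, the order seen for Snai2. The calls were lost in 9 and 5 of the 12 fits with 1 array left out, at adjusted p up to 0.157 and 0.131, at 4 h without any one control or 12 h array, array 1 or 3 at 4 h or array 1 at 24 h, and at 12 h without control 1 or 2 or any one 12 h array.

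The Id genes, classical BMP targets that encode dominant-negative helix-loop-helix proteins, were still high at 24 h, when the changes of Hmga2 and Snai1 were smaller than at 4 h. Id1 stood at 0.97, 0.97 and 1.07 above control at 4, 12 and 24 h, Id2 at 0.84, 1.27 and 1.19, and Id3 at 0.64, 0.79 and 0.92. All 9 values passed in the paired fit, with the highest limma adjusted p at 0.00869 for Id2 at 24 h, and 0 unpaired. The reading of the sign leaned partly on these genes, and they were in view beforehand. Their direction and calls are therefore a description. For Id2 at 24 h the paired call was lost when control 1 (0.0602), control 2 (0.0612), 24 h array 2 (0.0738) or 24 h array 3 (0.072) was left out. Between 24 h and 12 h the Id genes stood between -0.08 and 0.14 and 0 of 3 passed. The difference in course between the Id genes and Hmga2 or Snai1 was not tested.

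**Figure D5:**
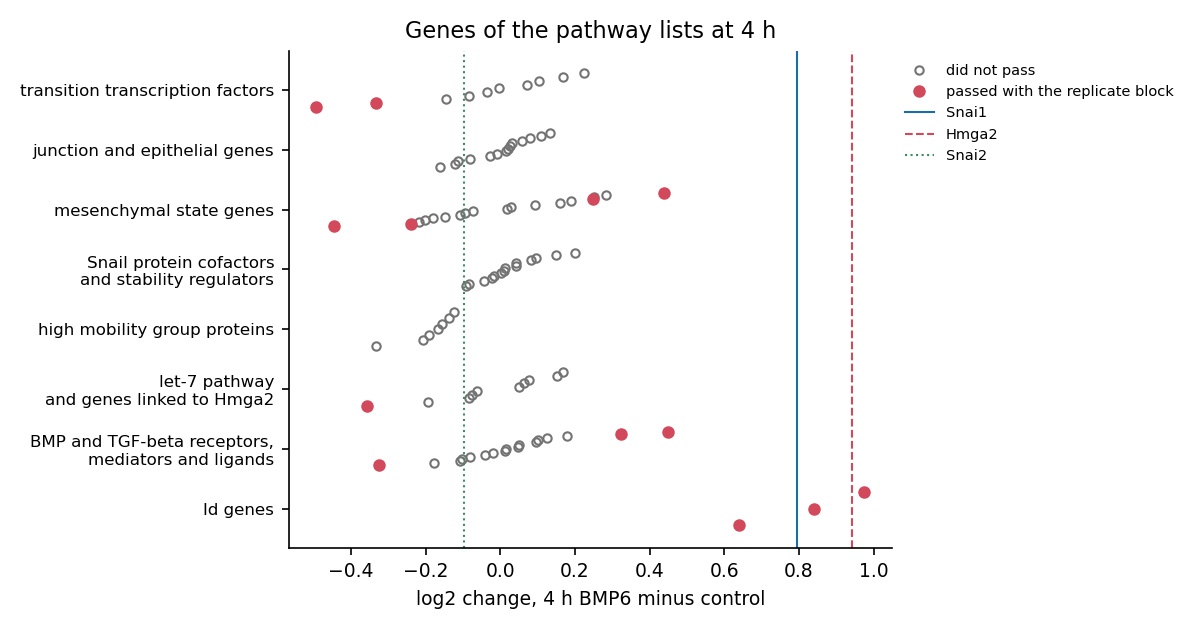
Log2 change at 4 h against control (x axis) of the measured genes of each list (rows). Filled points passed in the paired fit and open points did not, and vertical lines are Snai1, Hmga2 and Snai2. Apart from Id1 and Id2, no list gene reaches the Snai1 line at 0.79, and the mean changes of all 7 high mobility group genes lie below 0.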

How the data were processed

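RNA of MEC cells (Cy5) and of a mouse reference (Cy3) was hybridised to Agilent mouse development arrays. Per the series' design text, the authors quantified the images with GenePix Pro and normalized them by a modified quantiles method. The deposited values were taken as log2 ratios, since their base and sign are not stated. The 20280 value rows per array had a mean of 0, medians between -0.04 and 0.002 and SDs between 0.607 and 0.688. Spot intensities were not used here, so detection is not known, and precision is limited by the 3 arrays per group. Rows were named through the platform table (11083 probe numbers, 10576 with 1 symbol, 507 with several and not used) after the grid of 22575 positions was reordered. Of these, 10548 took the current symbol of their gene identifier and 28 kept the platform's.

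Probes of a gene were averaged and fitted with limma 3.58.1 in R 4.3.3 (lmFit, eBayes, two-sided) on all 12 arrays without a replicate term, as in the unpaired test of the study, and with the title number as a block. The numbers were taken as pairs, though the labels do not say what same-numbered arrays share. Deviations of same-numbered arrays from their group means correlated at 0.443 to 0.695 in all 18 comparisons between groups. Those of other numbers correlated at -0.564 to 0.069. Centring on means of 3 arrays pushes these values down where same-numbered arrays resemble each other, so the contrast overstates the pairing. The genes described and the lists were chosen with earlier results of these data known. Named are the 3 genes, the 5 nearest to each by correlation, and list genes called against control in either fit, at most 4 per list and time by the smallest unpaired p.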

Additional observations from a re-analysis of the deposited data

Results flagged for a closer look

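Several genes took different courses at different times. Snai2 lay below its paired control on every 4 h and 12 h array and above it on every 24 h array. Its unpaired mean change turned direction at each time when certain single arrays were left out. The difference between 24 h and 4 h was 0.202 and was not tested, because the choice of genes used the 4 h arrays. That between 24 h and 12 h was 0.209 and did not pass limma's test (adjusted p 0.184 paired, 1 unpaired). Cdh11 likewise lay below its paired control at 12 h and above it at 24 h in all pairs, by 0.297 between the times (limma adjusted p 0.409 paired).

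List genes that the paired fit had called against control also differed between times in that fit. Between 12 h and 4 h, where it called 1.29% of all genes, these were Jup at -0.272, Itga5 at -0.327, Acvr1 at -0.285 and Tgfb1 at -0.355. Between 24 h and 4 h, where it called 4.05%, they were Prrx1 at 0.366, Cdh11 at 0.618, Itga5 at -0.36, Acvr1 at -0.307, Tgfb1 at -0.334 and Tgfb2 at 0.439. Between 24 h and 12 h, where it called 0.109%, it was Tgfb2 at 0.551. Each gene was picked because its arrays at 4 or 12 h differed from control, and the same arrays enter these differences, which favours such differences. The values are therefore a description, and no p is given. In the unpaired fit none of them passed, with limma adjusted p from 0.118 to 1.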

How the results depend on the processing

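The data were refitted with the replicate block, quantile normalization, centred arrays or only the 2 groups compared. The t-test of the methods and a fit without the genes lowest on average were also run. All 63 values of Snai1, Snai2 and Hmga2 kept their side of the threshold or moved by less than the spread of the replicates. Only quantile normalization and centring could move a mean change, because the other settings leave the group means of a gene as they are. The 24 h against 12 h values were judged by direction and by the threshold, which none of them passed in the main fit. With 1 array left out, Snai1 ran from 0.68 to 0.938, 0.519 to 0.777 and 0.244 to 0.546 at 4, 12 and 24 h, and Hmga2 from 0.803 to 1.11, 0.524 to 0.682 and 0.036 to 0.17. Snai1 at 24 h was 0.244 without 24 h replicate 3. Hmga2 at 24 h was 0.17 and 0.036 when control 1 and control 2 were left out, and 0.069 when array 3 at 24 h was. Snai2 ran from -0.251 to 0.038, -0.257 to 0.03 and -0.016 to 0.239. Its unpaired direction turned at 4 h without control 1 or array 2 (0.038 and 0.019), at 12 h without control 1 or array 2 (0.03 and 0.024), and at 24 h without control 2 or array 1 (-0.016 and -0.008). The 24 h against 12 h values kept their direction without each array and did not pass, at -0.389 to -0.122 for Snai1, 0.08 to 0.361 for Snai2 and -0.574 to -0.416 for Hmga2.

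Counts of calls depended on the replicate block: at 4 h 498 genes passed with it against 14 without, at 12 h 156 against 0, at 24 h 14 against 0, and between 24 and 12 h 9 against 0. Of list genes 13, 6 and 3 passed with the block at 4, 12 and 24 h, against 0 at each time without. At 4 h the unpaired count was 27 after quantile normalization, 26 without the genes lowest on average, 0 with the 2 groups alone, 0 by the adjusted t-test of the methods, and 3 to 51 with 1 array left out (3 without control 1, control 2 or 4 h array 3, 4 without 4 h array 2, 9 without 24 h array 2 and 51 without 4 h array 1). After quantile normalization 1 list gene passed at 4 h, 1 gene at 12 h and 1 gene between 24 and 12 h, and the t-test called 1 gene at 12 h. With 1 array left out, 0 to 1 genes passed at 12 h and 0 to 1 list genes at 4 h. With the block and 1 array left out the counts ran from 208 to 642, 22 to 288 and 2 to 16 genes at 4, 12 and 24 h, 0 to 28 between 24 and 12 h, and 7 to 15, 3 to 8 and 2 to 3 list genes. At 4 h these were 208, 238 and 215 genes without control 2 and 4 h arrays 2 and 3. At 12 h they were 34 and 288 without controls 2 and 3, 35, 22 and 62 without 12 h arrays 1 to 3, and 97, 96 and 93 without 24 h arrays 1 to 3. The cause was not tested. Fits with the block and 1 array left out were added after seeing the data. Each gene has 1 probe, so single probes gave no other value.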

Other observations

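Some genes of the mesenchymal state changed between times without a call against control. Lox and Mmp14 were chosen after their values were seen, in comparisons where the paired fit called 4.05% (24 h against 4 h) and 1.29% (12 h against 4 h) of all genes. Their p are therefore a description, and these calls were not followed with 1 array left out. Lox, which encodes a collagen-crosslinking enzyme, was lower at 24 h than at 4 h by a log2 change of -0.55, with 1.20, 0.17 and 0.32 at 24 h against 1.603, 0.83 and 0.91 at 4 h (limma adjusted p 0.00308 in the paired fit, 0.905 unpaired). The membrane metalloprotease gene Mmp14 was lower at 12 h than at 4 h by -0.45, with 0.76, 0.60 and 0.77 at 12 h against 1.07, 1.32 and 1.08 at 4 h (0.0296 paired, 0.204 unpaired). All 12 h arrays of Mmp14 lay below all its 4 h arrays, as did those of 4.98% of all genes, while 4.16% lay higher without overlap. Cdh2, the gene nearest to Snai2, was higher at 24 h than at 4 h by 0.31, in 3 of 3 pairs. Cdh2 was picked for its likeness to Snai2 over these same arrays, so this is a description and no paired p is given. Unpaired it did not pass (limma adjusted p 0.982).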
